A study of Mus musculus with 2 samples.

Results

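Stress and chemokine macrophages are a small set of macrophages from injured mouse muscle that carry high levels of the neutrophil-attracting chemokines Cxcl1 and Cxcl2 or of the stress genes Hmox1 and Gdf15. They were selected cell by cell on their UMI counts (UMIs are unique molecular identifiers, each counting a captured transcript). A member had at least 3000 UMIs, at most 20% of them from mitochondrial genes, and at least 30 UMIs of Cxcl1, Cxcl2, Hmox1 and Gdf15 together per 10000, which is called the score below. It also carried at least 1 UMI of the macrophage complement genes C1qa, C1qb and C1qc, under 200 per 10000 of the MHC class II genes H2-Aa, H2-Ab1, H2-Eb1 and Cd74, and under 10 per 10000 of the interferon-induced genes Ifit1, Ifit2, Ifit3, Rsad2 and Cxcl10. Cells with over 1 UMI of the monocyte genes Hp and Vcan, or over 4 of the collagen genes Col1a1, Col3a1 and Col1a2, were left out. Of the 6724 cell barcodes of the series, 141 were members, 120 in the Gata3KO library and 21 in the Wt library. Cells that passed every limit but stayed under 30 on the score are called the other C1q macrophages; there were 667 in Gata3KO and 537 in Wt.

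Cxcl1 and Cxcl2 bind the receptor Cxcr2 on neutrophils and draw them into damaged tissue, and macrophages induce both genes within a short time of sensing danger signals through the transcription factor NF-kappaB. Hmox1 encodes haem oxygenase, which breaks down the haem of lysed red cells and myoglobin and is induced with glutathione and iron-export genes when haem or oxidants release the transcription factor Nrf2. Gdf15 is a secreted stress factor of the TGF-beta family that macrophages of regenerating muscle are known to make.

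The cells came from tibialis anterior muscle taken 4 days after 50 µl of 10 µM cardiotoxin, a snake venom toxin that lyses muscle fibres, had been injected. Live cells carrying CD45 and CD11b and lacking Ly6G, a neutrophil surface protein, were sorted, and 8000 cells per genotype were loaded for droplet RNA sequencing of transcript 3' ends. The Gata3KO library came from mice of the strain C57BL/6:Cx3cr1CRExGata3fl/fl, in which Cre recombinase made from the Cx3cr1 gene removes a floxed part of the transcription factor gene Gata3. The Wt library came from C57BL/6 mice, with the same injection and sort and no Cre. Cre from Cx3cr1 acts in monocytes, macrophages and other cells that use that gene or descend from cells that did, and the Wt animals do not carry it. There was 1 library per genotype, the labels do not say how many animals each holds, and cells are not replicates. No test was therefore made; intervals are 95% intervals of counting error alone, and a difference between genotypes cannot be told apart from a difference between the animals, sorts or preparations.

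The Gata3KO library held 3434 barcodes and 19422237 UMIs and the Wt library 3290 barcodes and 15392330 UMIs, of which 1004 and 1119 barcodes met the limits on UMIs and mitochondrial share. Members had a median of 13406 UMIs in Gata3KO (3133 to 46171) and 7613 in Wt (3024 to 44091), against 7476 and 5933 in the other C1q macrophages, and 1 Wt member held 18.04% of all UMIs of the Wt members. The median mitochondrial share was 7.19% in Gata3KO and 8.70% in Wt members, against 10.9% and 10.5% in the others. The 2 barcode sequences found in both libraries belonged to no member, and a doublet caller marked 6 Gata3KO and 2 Wt cells, none of them members. Gata3 had 0 UMIs in the members of either library, which allows a share with a UMI of up to 2.5% of Gata3KO members and 14.3% of Wt members, so these cells give no check of the deletion; the other C1q macrophages had 1 Gata3 UMI in Gata3KO and 3 in Wt. All 10 macrophage markers, among them Cd68, Csf1r and Adgre1, were present in the members of both libraries, and together they made a median of 441 UMIs per 10000 in Gata3KO members and 327 in Wt members.

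No promoter was listed for Hmox1, so none is printed for it. The promoters of Cxcl1 and Cxcl2 are shown because both genes define the chemokine side of these cells. Nfkbia is shown because it was among the most enriched genes that the rule did not use. Gclm and Slc7a11 are shown because they represent the stress side. Each is the RefSeq promoter of the build GRCm38.p6, from 250 bases before to 50 after the annotated start, printed along the gene's own strand. Capitals mark matches, on either strand, to a kappaB-like site of 10 bases, the core of an antioxidant response element (TGACNNNGC), a CCAAT-ATF element (TGATGNAA) or the core of a hypoxia response element (ACGTG).
Cxcl1: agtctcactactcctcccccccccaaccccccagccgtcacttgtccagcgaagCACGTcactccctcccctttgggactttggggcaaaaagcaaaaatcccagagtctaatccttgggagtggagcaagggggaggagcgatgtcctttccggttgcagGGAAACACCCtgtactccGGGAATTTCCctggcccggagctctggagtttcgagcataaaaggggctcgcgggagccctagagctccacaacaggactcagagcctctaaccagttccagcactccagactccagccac
Cxcl2: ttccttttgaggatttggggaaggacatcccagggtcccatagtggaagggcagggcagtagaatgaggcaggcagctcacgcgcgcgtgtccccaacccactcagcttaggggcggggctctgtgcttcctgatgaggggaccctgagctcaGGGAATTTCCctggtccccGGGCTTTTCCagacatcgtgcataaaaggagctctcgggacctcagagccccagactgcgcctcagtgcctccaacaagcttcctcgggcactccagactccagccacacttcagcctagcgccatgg
Nfkbia: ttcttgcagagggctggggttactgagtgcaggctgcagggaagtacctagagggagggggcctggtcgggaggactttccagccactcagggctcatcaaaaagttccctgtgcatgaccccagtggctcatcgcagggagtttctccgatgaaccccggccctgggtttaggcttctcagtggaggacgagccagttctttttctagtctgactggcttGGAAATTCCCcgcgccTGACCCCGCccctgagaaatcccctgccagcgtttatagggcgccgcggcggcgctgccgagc
Gclm: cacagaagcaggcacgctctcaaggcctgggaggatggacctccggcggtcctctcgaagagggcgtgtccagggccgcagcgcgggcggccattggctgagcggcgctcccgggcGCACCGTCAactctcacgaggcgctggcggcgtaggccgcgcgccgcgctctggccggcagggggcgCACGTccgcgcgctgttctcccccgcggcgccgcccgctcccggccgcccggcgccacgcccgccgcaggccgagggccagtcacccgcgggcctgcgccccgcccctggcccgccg
Slc7a11: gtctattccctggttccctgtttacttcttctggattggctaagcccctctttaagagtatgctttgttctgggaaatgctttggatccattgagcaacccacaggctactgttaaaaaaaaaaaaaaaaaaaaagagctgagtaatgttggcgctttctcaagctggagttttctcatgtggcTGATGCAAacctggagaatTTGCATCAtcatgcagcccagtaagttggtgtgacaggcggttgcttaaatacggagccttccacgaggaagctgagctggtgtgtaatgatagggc

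Cxcl1 (chr5:90890995-90891294, plus strand) and Cxcl2 (chr5:90903649-90903948, plus strand) are neighbours and share the same kappaB-like match, GGGAATTTCC, which begins at position -71 in Cxcl1 and -97 in Cxcl2 relative to the start. Each has a second kappaB-like match nearby, at -89 in Cxcl1 on the opposite strand and at -78 in Cxcl2. Nfkbia (chr12:55492598-55492897, minus strand) holds a kappaB-like match at -29 and an antioxidant core at -13. Gclm (chr3:122245307-122245606, plus strand) holds an antioxidant core at -134, and Slc7a11 (chr3:50443564-50443863, minus strand) holds a pair of CCAAT-ATF elements at -66 and -47, on opposite strands. Across all 32851 promoters of the table, 1.63% hold the kappaB-like site, 12.4% the antioxidant core, 3.97% the CCAAT-ATF element and 19.6% the hypoxia core. The shorter kappaB-like form GGGNNTTCC was in 5.82% of promoters. Of the 16 genes highest in members over other C1q macrophages, 13 had a promoter listed. The kappaB-like site was in 3 of these 13 and its shorter form in 2. The antioxidant core was in 4, the CCAAT-ATF element in 1 and the hypoxia core in 7. Of the 2 starts listed for Gdf15, 1 had no match and the other held the hypoxia core alone, and the window of Tnf held no match. A match is a description of letters and not a bound site.

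The members were far more frequent in the Gata3KO library. They made up 11.95% of Gata3KO cells meeting the limits on UMIs and mitochondrial share (120 of 1004, exact Clopper-Pearson interval 10.0 to 14.1%) and 1.88% of Wt cells (21 of 1119, 1.17 to 2.85%), a difference of 10.1 percentage points. Among the cells that passed every limit but the score, the shares were 15.2% in Gata3KO (12.8 to 17.95%) and 3.76% in Wt (2.34 to 5.70%). The score alone, with no limit on other genes, was met by 14.5% of Gata3KO cells (146 of 1004) and 3.49% of Wt cells (39 of 1119). The limit on interferon-induced genes removed 14 of these 146 cells in Gata3KO (9.59%) and 13 of 39 in Wt (33.3%), and the limit on MHC class II removed 6 and 7.

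The score had no gap at the limit. Its median was 55.3 per 10000 in Gata3KO members (30.5 to 280) and 49.6 in Wt members (32.2 to 214), and the highest cell left out stood at 29.9 in Gata3KO and 29.1 in Wt. From 20 up to 30 on the score there were 36 Gata3KO and 11 Wt cells, and at 100 or more 20 Gata3KO and 2 Wt members. Among the other C1q macrophages the median was 1.97 in Gata3KO and 0 in Wt, with 28.0% and 59.8% of cells at 0. The members are thus the upper end of a continuous range, and Gata3KO had the larger share of cells at the limits of 20, 30, 40, 60 and 100.

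**Figure D1:**
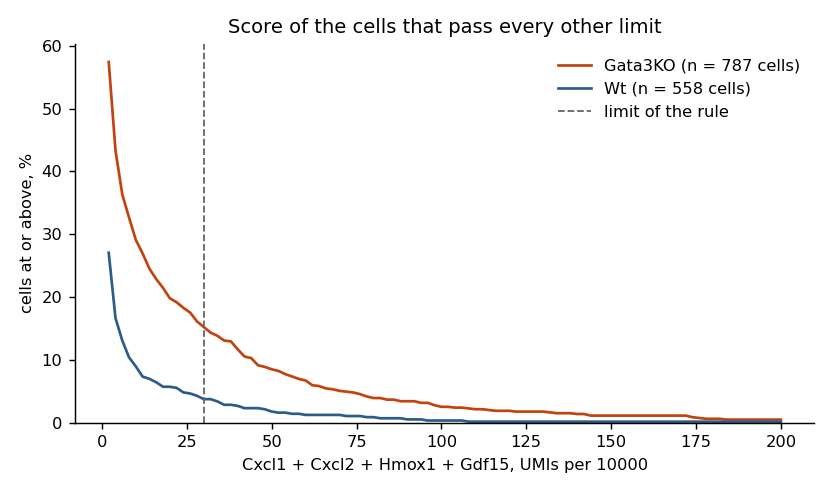
Percentage of cells that pass every other limit (y axis; 787 Gata3KO and 558 Wt cells) whose score is at or above the value on the x axis, in UMIs per 10000 up to 200, starting at a score of 2; the dashed line marks the limit of 30. The Gata3KO curve lies above the Wt curve at the limits of 20 (19.8% against 5.73%), 40 (11.7% against 2.69%) and 60 (6.73% against 1.25%).

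The genes of the score were not spread evenly over the members. Cxcl2 was found in 106 of 120 Gata3KO members and 15 of 21 Wt members, with medians of 27.2 and 29.98 UMIs per 10000 and highest cells of 172 and 145. Gdf15 was found in 101 Gata3KO and 16 Wt members, with medians of 9.23 and 6.66. Hmox1 was found in 91 Gata3KO and 15 Wt members, but most of it sat in few cells, with medians of 2.34 and 2.49 against highest cells of 170 and 79.0. Cxcl1 was found in 51 Gata3KO members and in 2 Wt members. After each cell was thinned to 3000 UMIs, Cxcl2 was found in 80.8% of Gata3KO members and 66.7% of Wt members, against 17.1% and 10.8% of the other C1q macrophages and 3.57% (1 of 28) and 0% (0 of 46, up to 6.52%) of barcodes with dendritic cell markers and no C1q UMI, whose median depths of 11155 and 8357.5 UMIs were no lower than the others'. Free RNA was not measured directly.

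Of the 3 markers that the rule did not use, Ier3 and Tnf were common in the members and Arg1 was not. Levels below are in CPM, a gene's UMIs over all UMIs summed over a group of cells, on a scale where 100 CPM equals 1 UMI per 10000. Ier3, an early-response gene induced by NF-kappaB, was found in 104 Gata3KO members at 991 CPM and 14 Wt members at 581 CPM. Tnf, the inflammatory cytokine, was found in 87 Gata3KO members at 414 CPM and 15 Wt members at 683 CPM. Arg1, arginase, a gene of wound-type macrophages, was found in 27 of 120 Gata3KO members (111 CPM) and 3 of 21 Wt members (20.5 CPM), and 5 UMIs stood behind the Wt value. Most members of both libraries thus had no Arg1 UMI at this depth. Arg1 was nevertheless more frequent in members than in other C1q macrophages: at 3000 UMIs per cell it was found in 9.17% of members and 1.80% of others in Gata3KO, and in 4.76% (1 of 21) and 0.745% in Wt. Members held 47.3% of the Arg1 UMIs of the Gata3KO cells that met the limits on UMIs and mitochondrial share. The matching value in Wt was 10.2%, on 5 member UMIs. In Gata3KO 1 cell held 19.9% of the members' Arg1 UMIs.

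The members could be divided by which pair of score genes was higher, although many carried both. Cxcl1 and Cxcl2 together exceeded Hmox1 and Gdf15 in 64 of 120 Gata3KO members (53.3%, exact interval 44.0 to 62.5%) and 12 of 21 Wt members (57.1%, 34.0 to 78.2%); these are called chemokine-led and the others Hmox1/Gdf15-led. Of the score genes, Hmox1 was the highest in 29 Gata3KO and 7 Wt members and Gdf15 in 26 and 2, so the second name covers cells led by either gene. Both pairs reached 15 per 10000 in 34 Gata3KO members (28.3%) and 6 Wt members (28.6%). The chemokine pair alone did so in 45 Gata3KO and 7 Wt members, and the Hmox1 and Gdf15 pair alone in 41 and 8. Chemokine-led members had a median of 12753 UMIs in Gata3KO and 6168.5 in Wt, and Hmox1/Gdf15-led members 16784 and 7653.

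**Figure D2:**
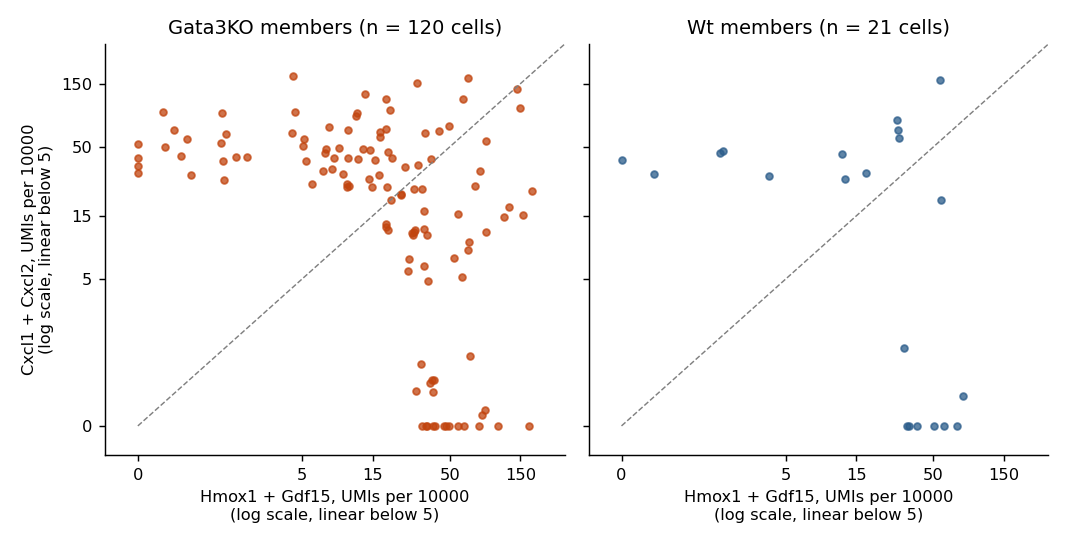
Each point is a member: UMIs of Cxcl1 and Cxcl2 per 10000 (y axis) against UMIs of Hmox1 and Gdf15 per 10000 (x axis), both on a log scale that is linear below 5, for 120 Gata3KO (left) and 21 Wt (right) members; the dashed line marks equal values. Points at the lower right have Hmox1 or Gdf15 with few or no chemokine UMIs, and points at the upper left the reverse.

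Genes of haem and glutathione handling went with the Hmox1/Gdf15-led side in both libraries. The split itself uses Cxcl1, Cxcl2, Hmox1 and Gdf15, so the values that follow are a description. Of the other Nrf2 antioxidant targets, 14 of 21 measured in Gata3KO and 13 of 22 in Wt were lower by 1.5-fold in chemokine-led than in Hmox1/Gdf15-led members (medians of the log2 ratio with 1 CPM added -0.85 and -1.20), where 10.4% and 31.3% of all genes measured were that much lower and the medians of all genes were -0.01 and 0.10. Blvrb, a biliverdin and flavin reductase, stood at 200 CPM in chemokine-led and 618 in Hmox1/Gdf15-led Gata3KO members, and at 187 and 1090 in Wt members. Prdx1, a peroxidase, stood at 1243 and 2808 CPM in Gata3KO and at 1748 and 3625 in Wt. Gclm, the modifier subunit of the enzyme that starts glutathione synthesis, stood at 82.9 and 614 CPM in Gata3KO and at 46.8 and 532 in Wt. The iron exporter Slc40a1 and Spic, the transcription factor of haem-recycling macrophages, were likewise lower in chemokine-led members, with log2 ratios of -3.57 and -1.89 in Gata3KO. In Wt 42 of 43 Slc40a1 UMIs and all 8 Spic UMIs were in Hmox1/Gdf15-led members, and 1 cell held 24 of the Slc40a1 UMIs.

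Several resident-type genes also lay with the Hmox1/Gdf15-led side. Selenop, a selenium carrier of resident macrophages, stood at 1055 CPM in chemokine-led and 2227 in Hmox1/Gdf15-led Gata3KO members (log2 ratio -1.08, interval -1.19 to -0.96), and at 339 and 3176 CPM in Wt members (-3.23, -3.67 to -2.81). The 8 lowest genes of this split, ranked whatever their function, also held Creg1, Wfdc17, Aldh2, Bst2 and the lipoprotein gene Apoe. These had log2 ratios from -1.44 to -0.72 in Gata3KO and from -1.82 to -0.79 in Wt. On the resident macrophage list 7 of 15 genes measured were lower in chemokine-led members in Gata3KO and 10 of 13 in Wt. In each library 1 gene of the list was higher. Of all genes, 10.4% and 31.3% were that much lower. The medians were -0.38 (interval over genes -1.08 to -0.12) in Gata3KO and -2.07 (-3.07 to 0.43) in Wt.

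Chemokine-led members carried more early-response transcripts. The early-response list was higher by 1.5-fold for 13 of 28 genes in Gata3KO and 26 of 30 in Wt (medians 0.55 and 1.70), where 9.99% and 35.6% of all genes were that much higher. S100a4, a calcium-binding protein of migrating cells, stood at 1221 CPM in chemokine-led and 361 in Hmox1/Gdf15-led Gata3KO members, and at 918 and 109 in Wt members. Crip1, Lmna, Ldha, Tuba1b, S100a10, Ifrd1 and Tnf were the other 7 highest, at log2 ratios of 1.02 to 1.28 in Gata3KO and 1.64 to 3.30 in Wt. Without the members that carried cell-cycle markers, Tuba1b had 0.63 in Gata3KO. In Wt 43.8% of the Crip1 UMIs and 38.2% of the S100a4 UMIs came from 1 cell. Hilpda, a lipid-droplet gene induced by hypoxia, had a log2 ratio of 1.40 in Gata3KO (interval 0.95 to 1.87).

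Few cells carried the dividing-cell transcripts. At 5 or more UMIs of 8 cell-cycle markers (Mki67, Top2a and others) per 10000 there were 9 of 64 chemokine-led and 4 of 56 Hmox1/Gdf15-led members in Gata3KO, and in Wt 2 of 12 chemokine-led members. All 7 markers measured in Gata3KO and all 8 in Wt were higher in chemokine-led members. The wider cell cycle list had a median of 1.58 in Gata3KO and 2.03 in Wt, and without these 15 cells the medians were -0.06 and 0.14. Over all members, 10.8% in Gata3KO and 9.52% in Wt reached that level, against 9.60% and 12.1% of the other C1q macrophages.

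Against the other C1q macrophages of their own library, the members carried more of the genes of inflammatory signalling, its feedback inhibitors and the antioxidant response. This is the contrast that chose the members, so it is described without support from a test, and the genes of the rule are left out. At 50 or more CPM and 100 UMIs, 109 of 3041 genes were higher by 2-fold in Gata3KO members (3.58%) and 13 lower (0.427%), and in Wt members 339 of 3232 were higher (10.5%) and 134 lower (4.15%). Of 3372 genes ranked in both libraries, 81 were higher by 2-fold in both and 4 lower, and 1310 did not share a sign.

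Genes were ranked if they reached 50 CPM in at least 1 group of either library and 100 UMIs in each library. The highest ratio by the smaller of both values was that of Egr1, an early-response transcription factor. Egr1 stood at 350 CPM in members and 29.8 in other macrophages of Gata3KO, and at 348 and 36.6 CPM in Wt. Tnf stood at 414 CPM in members and 48.1 in others of Gata3KO (log2 ratio 3.11, interval 2.92 to 3.29), and at 683 and 39.4 in Wt (4.12, 3.81 to 4.43). Ptgs2, the inducible cyclooxygenase, stood at 132 and 23.04 CPM in Gata3KO and at 225 and 12.1 in Wt. Both genes were several-fold higher in members of either library.

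Inhibitors of NF-kappaB were among the same genes. Nfkbia, which holds NF-kappaB in the cytoplasm and whose promoter is printed above, stood at 1918 CPM in members and 366 in others of Gata3KO (log2 ratio 2.39, interval 2.32 to 2.46), and at 2578 and 270 in Wt (3.25, 3.11 to 3.39). Tnfaip3, which removes the ubiquitin chains that carry the signal, had log2 ratios of 2.36 in Gata3KO and 3.44 in Wt. Socs3, an inhibitor of cytokine receptor signalling, had 2.21 and 2.10, and Il1rn, the interleukin-1 receptor antagonist, 2.24 and 2.81. On the NF-kappaB feedback list 15 of 21 genes in Gata3KO and 18 of 21 in Wt were higher by 1.5-fold (medians 0.88 and 1.53), where 7.07% and 24.2% of all genes were that much higher and the medians of all genes were -0.03 and 0.15.

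Chemokines and cytokines beyond the score followed. Ccl4, a chemokine that attracts monocytes and T cells, stood at 764 CPM in members and 167 in others of Gata3KO, and at 794 and 130 in Wt. Ccrl2, an atypical receptor that binds chemerin, stood at 381 and 80.2 CPM in Gata3KO and at 393 and 41.8 in Wt. Tnfsf9, the ligand of the T-cell receptor 4-1BB, had log2 ratios of 3.62 and 3.90, and Clec4e, a receptor for damage signals, 3.12 and 2.97. Il1b had a log2 ratio of 1.01 in Gata3KO and 4.14 in Wt, and 80.0% of the Wt members' Il1b UMIs came from 1 cell. On the inflammatory cytokine list 7 of 10 genes in Gata3KO and 9 of 11 in Wt were higher by 1.5-fold (medians 1.60 and 2.89), where 7.07% and 24.2% of all genes were. The intervals of these medians over genes reached down to -0.064 and -0.049.

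The antioxidant and iron genes formed another group. Gclm stood at 353 CPM in members and 47.2 in others of Gata3KO (log2 ratio 2.90, interval 2.71 to 3.09), and at 192 and 27.7 in Wt (2.80, 2.28 to 3.29). Slc7a11, the cystine importer, stood at 97.4 and 7.93 CPM in Gata3KO and at 28.6 and 5.41 in Wt, where 7 UMIs in 4 members stood behind the first value. Slc40a1, the iron exporter ferroportin, stood at 218 and 24.9 CPM in Gata3KO and at 176 and 14.7 in Wt. In Wt members 1 cell held 55.8% of its UMIs. Any UMI of it was found in 32 of 120 Gata3KO members and 4 of 21 Wt members, so this gene marked a subset. On the Nrf2 list 19 of 21 genes in Gata3KO and 18 of 21 in Wt were higher by 1.5-fold (medians 1.13 and 1.56), among them Srxn1 at 2.26 in each library and Txnrd1 at 2.02 and 2.12. Of all genes measured, 7.07% and 24.2% were that much higher.

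The widest list was early response, with all 28 genes measured higher in Gata3KO members and 27 of 30 in Wt members (medians 1.41 and 1.87). Higher means by 1.5-fold for this and the following lists, a limit that 7.07% of all genes passed in Gata3KO and 24.2% in Wt. Maff, a small partner of Nrf2, had log2 ratios of 2.47 and 3.98. Plk2, Dusp2, Csrnp1, Ifrd1 and Id3, which are induced by growth and stress signals, had log2 ratios of 2.15 to 2.33 in Gata3KO and 2.57 to 3.72 in Wt. Hypoxia and glycolysis genes were higher for 18 of 27 in Gata3KO and 17 of 24 in Wt (medians 0.71 and 0.80), led by Hilpda, at 2.24 and 3.72, with 24 of its 32 Wt member UMIs in 1 cell. The integrated stress response list had 7 of 14 genes higher in Gata3KO and 8 of 14 in Wt (medians 0.73 and 1.15), and the iron and haem list 7 of 17 and 14 of 16 (0.31 and 1.17). CC chemokines were higher for 5 of 8 and 6 of 10 genes, and oxidative phosphorylation for 0 of 72 and 4 of 72. Heat shock genes, which also respond to tissue digestion, were higher for 7 of 12 in Gata3KO and 5 of 13 in Wt, and the part of cell handling in these lists was not tested.

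**Figure D3:**
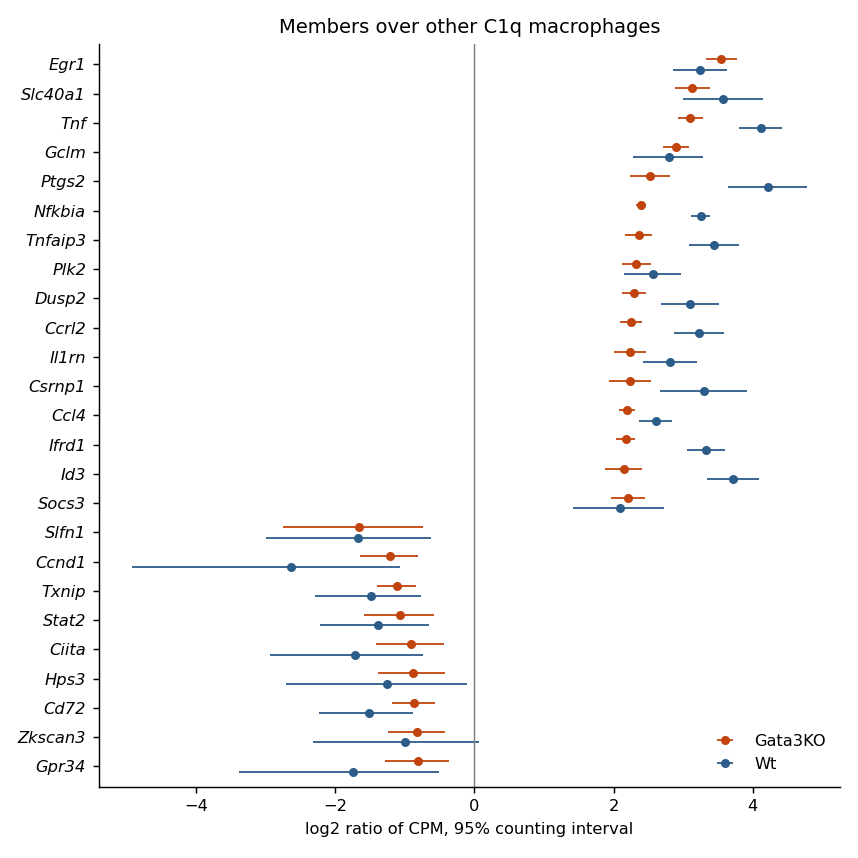
Log2 ratio of CPM, members over other C1q macrophages, with 95% counting intervals, for the 16 highest and 9 of the 10 lowest genes by the smaller of both libraries' ratios (Gata3KO above Wt in each row). The ratios of the 16 higher genes run from 2.15 to 3.55 in Gata3KO and from 2.10 to 4.22 in Wt.

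Interferon-pathway genes were at the low end. Stat2, which carries type I interferon signals, stood at 21.5 CPM in members and 45.2 in others of Gata3KO (log2 ratio -1.07, interval -1.59 to -0.59), and at 61.4 and 160 in Wt (-1.38, -2.22 to -0.65). MHC class I genes were lower by 1.5-fold for 3 of 17 in Gata3KO and 2 of 19 in Wt (medians -0.40 and -0.10). The Wt count was below the 15.2% of all genes that were that much lower, and its median had an interval over genes of -0.45 to 0.26. Ciita, the master regulator of MHC class II, stood at 23.2 CPM in members and 43.4 in others of Gata3KO, and at 32.7 and 108 in Wt. The limits of the rule on MHC class II and interferon-induced genes apply to both sets of cells, but they bear on these genes. Txnip, an inhibitor of glucose uptake, had -1.12 and -1.48, and Ccnd1, cyclin D1, -1.21 and -2.63. Slfn1, Hps3, Cd72, Zkscan3 (whose Wt interval reached 0.07) and Gpr34 were also among the 10 lowest, with ratios of -1.66 to -0.81 in Gata3KO and -1.75 to -0.996 in Wt. Several Wt values rested on few UMIs in members: 3 for Ccnd1, 5 for Gpr34, 6 for Hps3, 7 for Slfn1 and 8 for Ciita. On the interferon list 15 of 29 genes measured in Gata3KO and 10 of 43 in Wt were lower by 1.5-fold (medians -0.63 and -0.32), where 3.97% and 15.2% of all genes were that much lower. On the same list 1 gene in Gata3KO and 6 in Wt were higher.

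Genes of lipid-laden macrophages did not follow a shared pattern. The lipid-associated list was higher for 3 and lower for 2 of 28 genes in Gata3KO members (median -0.09) and higher for 16 of 28 in Wt members (median 0.81). Of all genes, 7.07% were that much higher and 3.97% lower in Gata3KO, and 24.2% higher and 15.2% lower in Wt. Fabp5, a fatty acid carrier, stood at 2224 CPM in members and 3707 in others of Gata3KO, and at 6907 and 2563 in Wt, where 38.5% of the member UMIs came from 1 cell. Spp1, osteopontin, stood at 3440 and 3367 CPM in Gata3KO and at 3658 and 2153 in Wt, so the Wt other macrophages were the lowest of the 4 sets. Whether the contrast differs between the libraries was not tested.

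**Figure D4:**
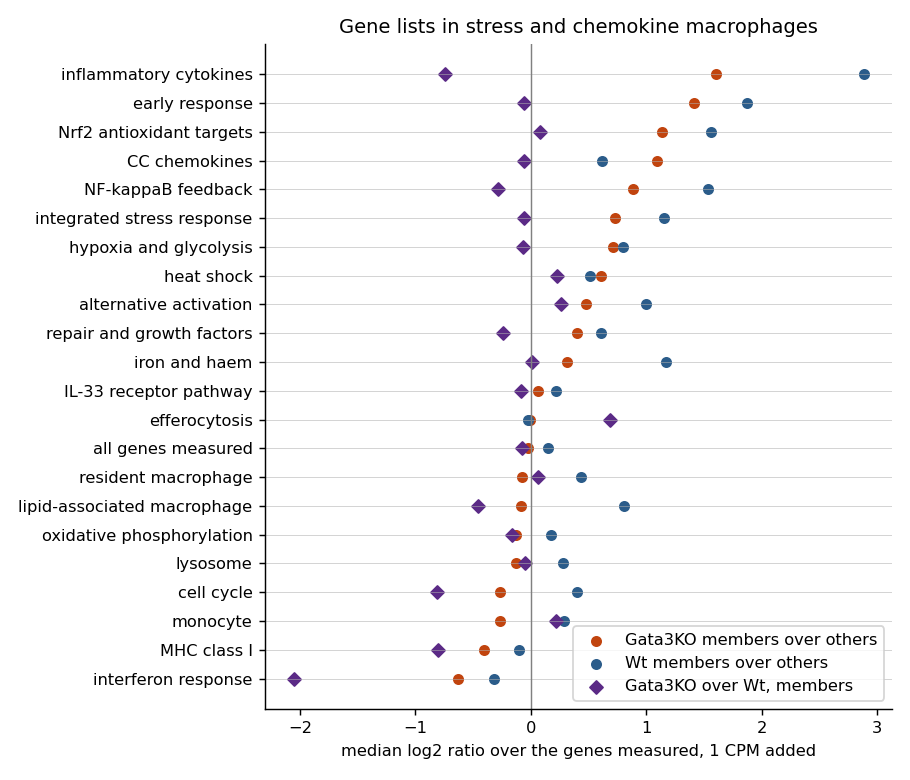
Median log2 ratio over the genes measured, with 1 CPM added, for each gene list with at least 8 genes measured: members over other C1q macrophages in Gata3KO (red circles) and Wt (blue circles), and Gata3KO over Wt in members (purple diamonds). Inflammatory cytokines, early response and Nrf2 targets lie at the high end of the circles, and the interferon list lies at -2.06 for Gata3KO over Wt.

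Set against Wt members, Gata3KO members had far less interferon-induced transcript. Cx3cr1, Hspa1b and Arg1 had higher CPM in Gata3KO members, on 9, 2 and 5 UMIs in Wt members. Of the genes of the score, Cxcl2 and Gdf15 stood close between the libraries and Hmox1 and Cxcl1 higher in Gata3KO. The rule did not use genotype, but its limits on interferon-induced and MHC class II genes removed a larger share of high-score cells in Wt, so genes that go with those limits are not independent of the choice of cells. Of 2857 genes at 50 or more CPM in 1 library and 100 UMIs over both, 100 were higher by 2-fold in Gata3KO members (3.5%) and 64 lower (2.24%). Cxcl2 stood at 3365 CPM in Gata3KO members and 3842 in Wt members, and Gdf15 at 1330 and 1358. Hmox1 stood at 2744 CPM in Gata3KO members and 1375 in Wt members (log2 ratio 0.997, interval 0.84 to 1.16), and Cxcl1 at 352 and 188 CPM (0.90, 0.47 to 1.37), with 69.6% of the Wt Cxcl1 UMIs in 1 cell. The limit on the score bears on all 4 levels.

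Cx3cr1, the fractalkine receptor gene that carries the Cre in the Gata3KO strain, stood far apart in the members and less so in the other macrophages. It was at 365 CPM in Gata3KO members and 36.8 in Wt members (log2 ratio 3.31, interval 2.38 to 4.45), but at 375 and 287 CPM in the other C1q macrophages (0.38, 0.29 to 0.48). At 3000 UMIs per cell it was found in 46.7% of Gata3KO members (exact interval 37.5 to 56.0%) and 14.3% of Wt members (3.05 to 36.3%), against 47.8% and 41.0% of the other macrophages. Behind the Wt value stood 9 UMIs in 4 cells, and the difference between members and others was not tested. Over the alternatives in processing given below, the Cx3cr1 ratio in members ran from 0.86 to 3.96.

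Among the 12 highest genes, Itgav, the integrin alpha-v subunit that binds apoptotic cells and activates TGF-beta, was found in 92 of 120 Gata3KO members (170 CPM) and 5 of 21 Wt members (24.6 CPM), a log2 ratio of 2.80 (interval 1.66 to 4.25) beside 0.53 in the other macrophages. Hspa1b, an inducible heat shock protein, stood at 109 CPM in Gata3KO members and 8.18 in Wt members; its near-identical copy Hspa1a stood at 525 and 135 CPM, and reads can be split between the copies. Arg1 had a log2 ratio of 2.44 (1.19 to 4.08), on 5 Wt UMIs. Ccl7, a monocyte-attracting chemokine, stood at 182 CPM in Gata3KO members and 32.7 in Wt members (2.47, 1.48 to 3.70), and at 48.0 and 21.2 in the other macrophages.

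Chil3, a chitinase-like protein of alternatively activated macrophages, and Gdpd3, a lysophospholipase, were higher in Gata3KO among members and others alike. Chil3 had log2 ratios of 2.23 in members and 4.02 in the others, and Gdpd3 2.76 and 2.68. Tmem176a and Tmem176b, neighbouring genes of intracellular ion channels, had 2.95 and 2.87 in members but -0.40 and 0.07 in the others. Ssh2, a cofilin phosphatase, Hfe, a regulator of iron uptake, and Cdk6, a cell-cycle kinase, had ratios of 2.09 to 2.65 in members and 0.21 to 0.51 in the others. These ratios in members depended on the processing. Over the alternatives given below, their lowest values were 0.31 for Tmem176a, 0.44 for Tmem176b, 0.37 for Ssh2, 0.60 for Cdk6 and 0.90 for Hfe. Each of the 12 genes had at most 11 UMIs in Wt members, and the interval of each lay above 0.

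The 12 lowest genes were mostly interferon-induced. Irf7, the transcription factor that amplifies type I interferon, stood at 123 CPM in Gata3KO members and 671 in Wt members (log2 ratio -2.45, interval -2.75 to -2.15) and was found in 75 of 120 and 19 of 21 cells. Isg15, a ubiquitin-like antiviral protein, stood at 60.01 CPM in Gata3KO members and 262 in Wt members (-2.13, -2.59 to -1.66). Ly6a, Rtp4, Oasl2, Ms4a4c, Ifi27l2a and Rnf213 had ratios of -2.85 to -1.93. The same 8 genes were lower in the other C1q macrophages of Gata3KO, with ratios of -2.38 to -1.41, so this difference was shared by both sets of macrophages. In Gata3KO 51.5% of the Ly6a UMIs of the members came from 1 cell.

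Over the interferon list, 40 of 41 genes measured were lower by 1.5-fold in Gata3KO members (median -2.06), where 20% of all genes measured were that much lower and 14.6% higher, with a median over all genes of -0.07. In the other C1q macrophages 41 of 42 were lower (median -1.53), where 5.12% of all genes were lower and 4.1% higher, with a median of 0.09. With the rule's limit on interferon-induced genes lifted, the median in members was -2.12. MHC class I genes went the same way, 11 of 18 being lower in Gata3KO members (median -0.81), among them Nlrc5, the regulator of the pathway, at a log2 ratio of -2.02 on 16 Gata3KO and 9 Wt UMIs.

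The other 4 of the 12 lowest genes drew much of their Wt level from few cells. Fabp4, a fatty acid carrier, stood at 70.2 CPM in Gata3KO members and 606 in Wt members (log2 ratio -3.11, interval -3.46 to -2.75) and was found in 24 of 120 and 9 of 21 cells, with 35.8% of the Wt UMIs in 1 cell. Mmp12, macrophage elastase, stood at 102 and 381 CPM and was found in 19 Gata3KO and 5 Wt members, and 1 Wt cell held 69.9% of its Wt UMIs. Its log2 ratio of -1.89 turned to 2.09 at a score limit of 60 and to 1.35 with cells chosen on Hmox1 and Gdf15 alone. Ctsl, a lysosomal protease, stood at 985 CPM in Gata3KO members and 3998 in Wt members, but 1 Wt cell held 72.1% of the Wt UMIs; without the Wt member with the most UMIs its log2 ratio was -0.47 in place of -2.02, and in the other macrophages it was 0.77. Cks2, a cell-cycle gene, had -1.82, with 72.5% of its Wt UMIs in 1 cell, and without the members that carried cell-cycle markers it had -1.10, with an interval that reached 0.017.

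**Figure D5:**
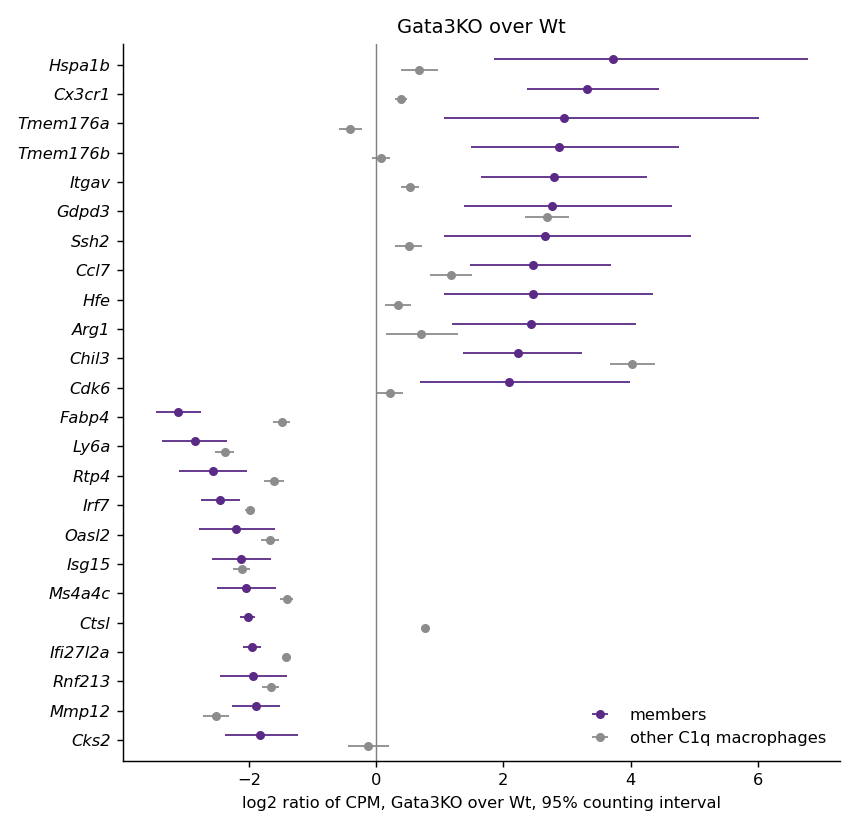
Log2 ratio of CPM, Gata3KO over Wt, with 95% counting intervals, in members (purple) and in the other C1q macrophages (grey) for the 12 highest and 12 lowest genes in members. Cx3cr1 lies at 3.31 in members and 0.38 in the others, and Irf7 at -2.45 and -1.98.

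Genes for the uptake of dying cells were divided. On the efferocytosis list, which holds receptors and bridging proteins for dying cells, 9 of 17 genes measured were higher in Gata3KO members and 4 lower (median 0.69, from -0.022 to 0.84 over the alternatives), where 14.6% of all genes were higher and 20% lower. In the other macrophages 2 were higher (median 0.46). Stab1, a scavenger receptor, stood at 485 CPM in Gata3KO members and 258 in Wt members, and Itgb5, the integrin partner of Itgav, at 344 and 205. Mfge8, which bridges dying cells to integrins, stood at 14.7 and 110 CPM, with 55.6% of its 27 Wt UMIs in 1 cell, and Cd36, a lipid and apoptotic-cell receptor, at 406 and 745. Marco was found in 2 Gata3KO members alone, with 93.6% of its 47 UMIs in 1 cell.

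Signalling lists that set the members apart from other macrophages were close between genotypes. Early response had 4 genes higher and 4 lower of 30 (median -0.06), Nrf2 targets 4 higher and 2 lower of 21 (0.08), NF-kappaB feedback 3 higher and 4 lower of 21 (-0.28), and hypoxia and glycolysis 5 higher and 2 lower of 27 (-0.07). The iron and haem list had 2 of 17 higher and 2 lower (0.01). The IL-33 receptor pathway, named in the title of the study, had 0 of 9 genes measured higher and 3 lower (-0.09). Of all genes measured, 14.6% were higher and 20% lower. With 1 library per genotype these medians do not show that the libraries were alike.

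Of 11 inflammatory cytokine genes 7 were lower in Gata3KO members and 1 higher, where 20% of all genes were lower and 14.6% higher. Their median was -0.74, with an interval over genes of -1.60 to 0.40. Tnf had a log2 ratio of -0.72 (interval -0.97 to -0.47), but at 3000 UMIs per cell it was found in 49.2% of Gata3KO and 47.6% of Wt members. Il1rn stood at 173 CPM in Gata3KO members and 315 in Wt members, and Ptgs2 at 132 and 225. Of 18 cell cycle genes 10 were lower (median -0.82), but the median turned to 0.041 at a score limit of 60, 0.23 with cells thinned to 3000 UMIs and 0.66 with cells chosen on Hmox1 and Gdf15 alone, and 2 of the 21 Wt members held 87.1% of the Wt members' cell-cycle marker UMIs. The lipid-associated list had 10 of 28 genes lower and 0 higher (median -0.45), while in the other macrophages 7 were higher and 2 lower (0.37).

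Markers of other cell types were present at low summed levels in the members, and the defining markers of several types were at 0. T and NK cell markers summed to 7.93 CPM in Gata3KO members and 0 in Wt members, dendritic cell markers to 3.96 and 4.09, and red cell markers to 1.70 and 0. B cell markers summed to 41.9 CPM in Gata3KO members and 69.6 in Wt members and were found in 32.5% and 57.1% of cells, against 36.9% and 47.1% of the others, with Cd79a and Ms4a1 at 0 in members of both. Neutrophil markers summed to 81.5 and 69.6 CPM and were found in 59.2% of Gata3KO and 47.6% of Wt members, against 51.1% and 49.2% of the others. Of 8 neutrophil markers, 4 had a UMI in Gata3KO and 3 in Wt members, S100a9, Retnlg, Ly6g and G0s2 being at 0 in both. Monocyte markers summed to 824 CPM in Gata3KO members and 544 in Wt members, close to the 871 and 595 of the other C1q macrophages. Skeletal muscle markers summed to 185 CPM in Gata3KO members and 299 in Wt members, against 127 and 683 in the others, with all 7 markers present in each, and their part in the results was not tested.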

How the data were processed

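Per the labels' protocols, sorted cells were captured with 10x 3' v3 chemistry. The values are UMI counts per gene and barcode that the authors deposited as filtered tables; Cell Ranger 3.0.1, Seurat 3.0.2, R 3.6.1 and the build mm10 are named in the submitters' processing notes. Genes listed in either library (14371) were used, with 0 where a library did not list a gene. Of these, 13289 were listed in both. Counts were summed over the cells of a group and divided by the group's total (CPM), with Python 3.11.15, numpy 2.4.6, pandas 2.3.3 and scipy 1.17.1; scanpy 1.11.5 ran the doublet caller. Intervals are exact at 95%, cover counting error alone, and treat UMIs as independent. A group at 0 was set to a floor of 3 counts. Single genes needed 50 CPM in 1 group and 100 UMIs; lists needed 20 CPM, with 1 CPM added and 1.5-fold as the limit; the rule's genes were left out. Genes were named as the 12 highest and lowest between genotypes, the 16 highest and 10 lowest against other macrophages and the 8 highest and lowest between chemokine-led and Hmox1/Gdf15-led members, beside list members; 1 gene among the 10 lowest is not reported here. The calculation was tested on simulated summed counts with counting error alone, so that test does not cover the spread between cells. The members and lists were chosen with earlier results of these data known. With 1 library per genotype no test was made. The alternatives changed the score limit, its genes, depth, scaling and filters.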

Additional observations from a re-analysis of the deposited data

Results flagged for a closer look

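Some of the named genes had ratios of opposite sign in the libraries, with counting intervals on opposite sides of 0. Only named genes were searched, and many of those had been chosen for sharing a sign. Of all genes ranked, whatever their intervals, 1310 of 3372 did not share a sign for members over others. For chemokine-led over Hmox1/Gdf15-led members it was 126 of 300. Whether the ratios differ between genotypes was not tested, since each has 1 library. For members over other C1q macrophages, Apoe had a log2 ratio of 0.38 in Gata3KO and -0.18 in Wt, Chil3 -0.25 and 1.55, Fabp4 -0.53 and 1.10, Tuba1b -0.15 and 0.79, and Wfdc17 -0.17 and 0.22. For chemokine-led over Hmox1/Gdf15-led members, Dusp2 had -0.39 in Gata3KO and 1.23 in Wt, Ier3 -0.29 and 1.15, Ifi27l2a 0.33 and -0.92, and Id3 -0.45 and at least 3.88, its Wt Hmox1/Gdf15-led members having 0 UMIs.

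Barcodes over the mitochondrial limit, which the comparisons do not use, also held cells of this kind. Of those with 3000 or more UMIs, 7.69% in Gata3KO (58 of 754, exact interval 5.89 to 9.83%) and 0.949% in Wt (3 of 316, 0.196 to 2.75%) met every other limit.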

How the results depend on the processing

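No paired analysis was possible because there is 1 library per genotype, and for the same reason no replicate could be left out. Under 21 planned and 2 added alternatives, 3346 values were recomputed. The added ones, chosen after seeing the data, left out the deepest Wt member or the members with cell-cycle markers. Some of the recomputed values could not change. Leaving out called doublets removed no member, and the limits on CPM do not enter the ratios of named genes. Of the 3346 values, 2890 stayed within counting error or the same range, 433 moved and 23 were counted as changed in sign. For lists this count needed a first interval off 0, and for genes also a first ratio of 2-fold or more. Other sign changes were counted as moved or unchanged. Tnf between genotypes, for example, ran from -1.02 to 0.091. The difference in the share of members, 10.1 points, was 12.7 with a score limit of 20 and 4.65 with a limit of 60. The 100 genes higher in Gata3KO members became 55 at a limit of 20, 8 with cells thinned to 3000 UMIs, 58 with Cxcl1 and Cxcl2 alone, 61 with 10 CPM added, 791 with no CPM limit, 36 at 100 CPM and 347 at 1.5-fold. The 64 lower genes became 41 at a limit of 60, 9 thinned, 764 with no CPM limit and 285 at 1.5-fold. The interferon median was -1.58 with 10 CPM added. Selecting on Cxcl1 and Cxcl2 alone gave Nrf2 medians over other macrophages of 0.57 in Gata3KO and 0.68 in Wt and a Slc40a1 ratio of -2.78 in Wt, and selecting on Hmox1 and Gdf15 alone gave an early response median of 1.10 in Gata3KO. Between genotypes, the cell cycle median became 0.041 at a limit of 60, 0.23 thinned and 0.66 with Hmox1 and Gdf15 alone, and oxidative phosphorylation 0.21, 0.0055 and 0.099. At a limit of 60 Mmp12 stood at 2.09 and Il1b at 0.22; Mmp12 stood at 1.35 with Hmox1 and Gdf15 alone and Cks2 at 1.22 thinned. For Wt members over others, the cell cycle median became -1.10 at a limit of 60, -0.27 thinned, -1.63 with Hmox1 and Gdf15 alone and -1.48 without cycling members, oxidative phosphorylation -0.16 at a limit of 60, -0.066 with Hmox1 and Gdf15 alone and -0.094 under median-of-ratios scaling, and Gpr34 0.18 at a limit of 20. For Gata3KO members over others, lysosome genes became 0.047 thinned and 0.024 with every cell weighted alike, and oxidative phosphorylation 0.012 with every cell weighted alike. Without cycling members the cell cycle median of chemokine-led over Hmox1/Gdf15-led members was -0.058 in Gata3KO. The cause was not tested. The 21 Wt members limit every genotype comparison.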
